A study of Mus musculus with 2 samples.

Results

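Genes for cholesterol and fatty acid synthesis were described in female mouse embryonic stem cells by their poly(A) RNA. The set held 32 protein-coding genes, listed by symbol for their place in the pathway, and the counts held 15127 genes. The members were chosen with earlier results of these data known. The cells were pSM44, an F1 line of the 129 and castaneus strains in which a tetracycline-inducible promoter drives Xist, the RNA that silences an X chromosome, from its own locus on the 129 allele. Both libraries of the group came from this line grown in serum-free 2i/LIF medium and given 2 μg/mL doxycycline for 24 h, so every value belongs to cells given the inducer of Xist. The counts of the group formed 1 column with a total of 10017978. The sources used here do not say whether it pools both libraries or holds 1 of them, so there was 1 value per gene and no replicate error, and no comparison with untreated cells was made. All 10 stem cell markers, Dppa5a, Nanog and Pou5f1 among them, were above 100 CPM (the count per 1000000 counts of the total). They summed to 9079 CPM, of which 4716 came from Dppa5a. The summed level was 39.5 CPM for fibroblast, 5.49 for liver, 1.497 for adipocyte and 48.1 for steroidogenic markers, and 42.9 of the last came from Fdx1, a mitochondrial electron carrier that other cells use too. Of the 8 fibroblast markers 4 were listed, with 267 counts for Thy1, 66 for Col1a2, 58 for Col1a1 and 5 for Pdgfra, while Dcn was not listed. The highest of the other lists, Fdx1 aside, were Apoa2 with 33 counts for liver, Cyp11a1 with 27 and Star with 24 for steroidogenic cells, and Cidec with 13 for adipocytes, while Alb, Fabp4 and Hsd3b1 were not listed.

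Cholesterol is built from acetyl-CoA through mevalonate, isoprenoid units, squalene and lanosterol, and fatty acids are built from the same precursor through malonyl-CoA. The SREBP transcription factors, encoded by Srebf1 and Srebf2, switch on most enzymes of both routes. They are held in the endoplasmic reticulum by Scap and the Insig proteins when sterols are plentiful, and are cut and released to the nucleus when sterols run low. Growing cells draw on both routes for membranes, and the isoprenoid branch also supplies lipid anchors for proteins.

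Transcripts of the pathway were abundant, and desaturases, Insig1 and Fasn stood highest. Of the 32 members, 31 were listed, against 68.7% of annotated protein-coding genes. All 31 reached 1 CPM, a level that took 11 counts, as did 80.1% of all listed and 55.1% of all annotated genes. At 10 CPM or more there were 30 members (58.9% of all listed genes), and at 100 CPM or more there were 17 (15.5%). Mvd was the member that was not listed. The median listed member had 127 CPM against 18.3 CPM for all listed genes, a difference of 2.74 on the log2(CPM + 1) scale. Members together held 0.793% of all counts (exact Clopper-Pearson 95% interval 0.787 to 0.798), and Scd2 alone supplied 25.3% of the members' counts.

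Levels of different genes were compared per length as TPM, here the counts per kilobase of exon scaled so that all genes sum to 1000000. The median listed member had 116 TPM and the median listed gene 11.9 TPM. At 100 TPM or more there were 17 members (11.9% of all listed genes), and at 10 TPM or more there were 29 (53.3%). Scd2 had the highest value of the listed members and Fdps, most of whose exons lie within another gene, the lowest. There were 6 members at 200 TPM or more, 11 from 100 to under 200 TPM, 12 from 10 to under 100 TPM and 2 under 10 TPM. Intervals given with single levels are exact 95% Poisson intervals and cover counting error only. Of the 30 pairs of neighbours in the order of TPM, 17 had overlapping intervals.

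**Figure D1:**
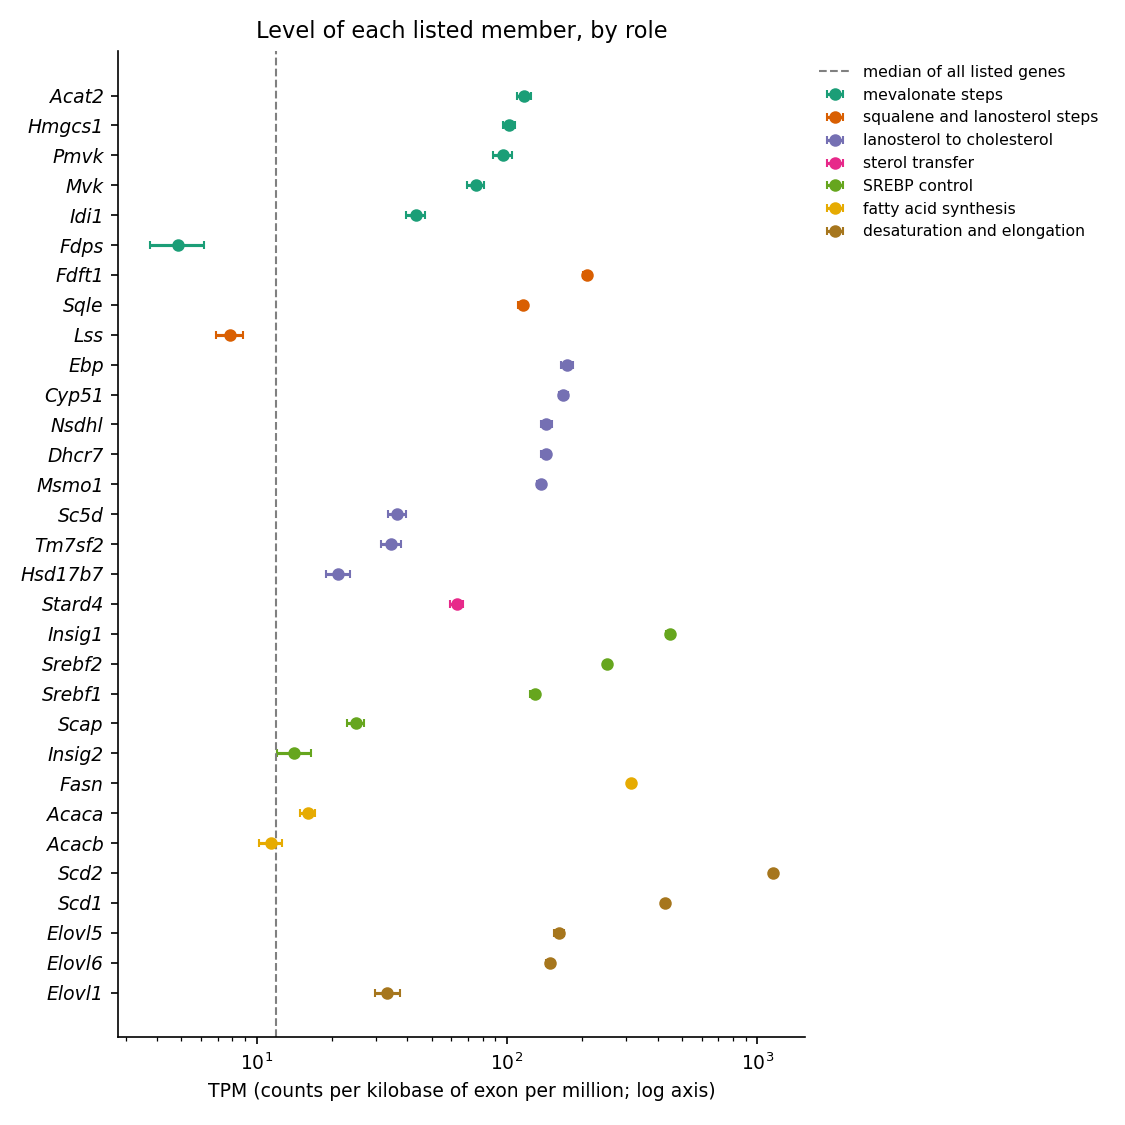
Level of the 31 listed members in TPM on a log axis, grouped by role; points are the single value of the group, bars are 95% Poisson intervals, and the dashed line is the median of all listed genes at 11.9 TPM. Scd2 stands at 1152 TPM, and Fdps, Lss and Acacb are the members left of the dashed line.

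Genes of the mevalonate steps were at middle levels, with a median of 85.8 TPM over 6 of 7 genes. Acat2, whose thiolase joins acetyl-CoA units, had 953 counts and 117 TPM (interval 110.1 to 125). Hmgcs1, which encodes the cytosolic HMG-CoA synthase, had 1494 counts and 102 TPM (96.8 to 107). Their intervals do not overlap, but per longest transcript the order turned, with 97.7 TPM for Acat2 and 99.5 for Hmgcs1. Acat2 also shared 39.1% of its exonic stretches of 50 bases with transcripts of another gene, all of them with the neighbouring paralog Acat3, so its value is uncertain. Pmvk and Mvk, the kinases that phosphorylate mevalonate in turn, had 96.4 and 75.2 TPM from 527 and 642 counts. Idi1, which interconverts the isoprenoid units, was lower at 43.2 TPM (483 counts, 39.4 to 47.2), and it shared 25.3% of its stretches with other transcripts. The share was 11.6% for Hmgcs1 and 26.2% for Fdps. Fdps, which joins those units into farnesyl pyrophosphate, had 65 counts, or 4.84 TPM (3.74 to 6.17), with 79.6% of its exonic bases within another gene. Acat2, Hmgcs1, Pmvk and Mvk thus lay from 75.2 to 117 TPM, with Idi1 and Fdps below them.

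Among the genes that make squalene and lanosterol the values differed, but Fdft1 and Lss overlap other genes. Fdft1, the squalene synthase that commits isoprenoids to sterols, had 2811 counts and 208 TPM (201 to 216). It shared 26.5% of its 50-base stretches with other transcripts, mostly with the overlapping gene Ctsb, so its value is uncertain too. Sqle, the epoxidase that follows, had 2046 counts and 116 TPM (111 to 121). Lss, which folds the epoxide into lanosterol, had 269 counts and 7.82 TPM (6.91 to 8.81). The values differed beyond their intervals. That of Lss, with 68.5% of its exonic bases within another gene, was under the median listed gene but cannot be read as low expression.

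Among the 8 genes that turn lanosterol into cholesterol, 5 formed a tight group from 137 to 173 TPM and 3 lay lower. Ebp, a sterol isomerase, had 173 TPM (164 to 183) from 1276 counts. Cyp51, the cytochrome P450 that removes the first methyl group of lanosterol, had 168 TPM (161 to 175) from 2363 counts. Msmo1, Nsdhl and Hsd17b7 encode the oxidase, dehydrogenase and ketoreductase that act together on the next methyl groups, and their levels were 137, 144 and 21.2 TPM. Hsd17b7, with 345 counts, was the low member of that trio. Dhcr7, which carries out a last reduction, had 143 TPM (137 to 148) from 2647 counts, and Sc5d, the desaturase acting just before it, had 36.5 TPM (33.6 to 39.7) from 567 counts. Tm7sf2, a sterol reductase, had 34.5 TPM (31.5 to 37.7). Lbr, the lamin B receptor, which catalyses the same reduction as Tm7sf2 and is not a member, had 217 TPM. The levels of Msmo1 and Dhcr7 depended on the gene model, as per longest transcript they were 209 and 217 TPM. Nsdhl and Ebp are the 2 members on the X chromosome, where Xist acts. Both were in the upper group, with Ebp 1.20-fold above Nsdhl (interval 1.11 to 1.30). Their values pool the 129 and castaneus alleles. Stard4, which carries sterol between membranes and is not an enzyme, had 1125 counts and 63.1 TPM (59.5 to 66.9).

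Within the control system, Insig1 and Srebf2 had the highest levels, Srebf1 was near the members' median, and Scap and Insig2 were lower. Insig1, the retention protein whose gene is itself an SREBP target, had 4407 counts and 447 TPM (434 to 460). Insig2, its paralog, had 157 counts and 14.2 TPM (12.0 to 16.6), so Insig1 stood 31.5-fold higher per kilobase (exact conditional binomial 95% interval 26.9 to 37.2). Srebf2, the factor tied mainly to sterol genes, had 5742 counts and 251 TPM (244 to 257). Srebf1, tied more to fatty acid genes, had 2317 counts and 129 TPM (124 to 134), and Srebf2 exceeded it 1.94-fold (1.85 to 2.04). Counts per gene do not separate the Srebf1 isoforms. Scap, the escort that carries both factors out of the endoplasmic reticulum, had 591 counts and 24.9 TPM (22.9 to 27.0). Of the exonic bases of Scap, 13.2% lay within another gene. Insig1 lay 17.9-fold above Scap (16.5 to 19.6), or 11.7-fold per longest transcript (10.7 to 12.8), and Srebf2 lay 10.1-fold above it (9.25 to 10.97). Transcript levels say nothing of how much of these proteins is present or cut.

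The promoter sequences of the members mostly held a CCAAT box. RefSeq windows on GRCm38.p6, running from 250 bases before to 50 after a transcript start, were on hand for 26 of the 32 members, Mvd included. Fdps, Fdft1, Sqle, Stard4, Scd1 and Scd2 had no window. The CCAAT box, the motif of the factor NF-Y, which is known to work beside SREBP, was searched as CCAAT on both strands. It was present in a window of 22 of 26 members (84.6%), against 42.7% of 11881 listed genes and 37.4% of all 32851 windows. Over genes with a single window, where none has more chances than another, it was in 17 of 20 members (85.0%) and in 39.3% of 9521 listed genes. The members without it were Acaca, Acat2, Elovl6 and Scap. The E-box CACGTG was in 6 of 26 members (23.1%) against 11.2% of listed genes and 7.15% of all windows, and the GC box GGGCGG was in 20 (76.9%) against 64.5% and 35.7%. The sterol element was searched only as an exact TCACNCCAC. It was in 1 of 26 members, Hmgcs1 (3.85%), against 1.49% of listed genes and 1.24% of windows. Sequences 1 base off the pattern, such as TCACCCCAT in the Srebf2 window, were not counted. A window without a match is therefore not shown to lack a sterol element. These letter matches describe the windows and are not evidence of binding.

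**Figure D2:**
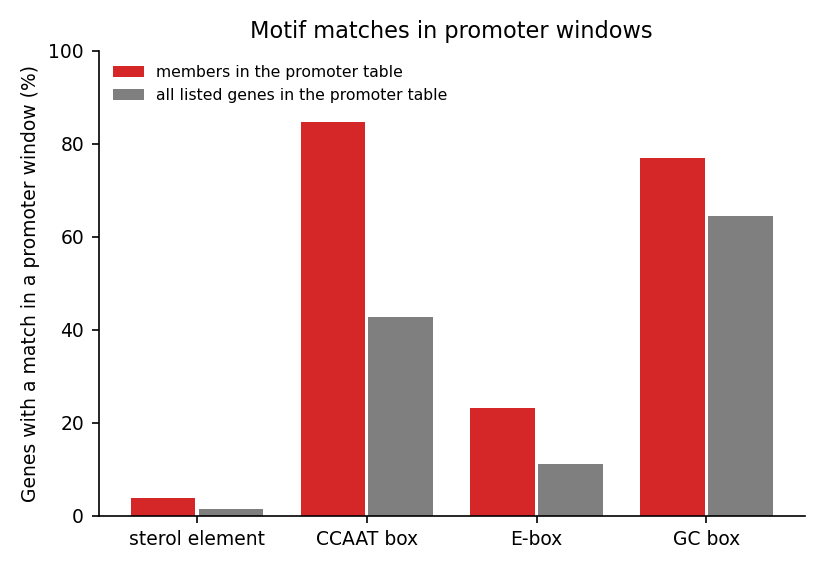
Share of genes with a match to each motif on either strand in a RefSeq promoter window, for 26 members and for 11881 listed genes; bars carry no error because they count sequences. The CCAAT box has the widest gap, 84.6% against 42.7%.

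The upstream 250 bases of 4 promoters are shown to let the motifs be seen in place. They are Hmgcs1, the member with an exact sterol element match, and the 3 members of highest TPM with a CCAAT box in a window. The last choice was made after the matches were seen. Sequences run 5′ to 3′ on the gene's strand and end at the base before the start, with capitals for the sterol element (TCACCCCAC, in Hmgcs1) and for CCAAT or its reverse complement ATTGG. The windows are chr13:119690101-119690350 (plus strand) for Hmgcs1, chr5:28071162-28071411 (plus strand) for Insig1, chr11:120824548-120824797 (minus strand) for Fasn and chr15:82147019-82147268 (plus strand) for Srebf2.
Hmgcs1: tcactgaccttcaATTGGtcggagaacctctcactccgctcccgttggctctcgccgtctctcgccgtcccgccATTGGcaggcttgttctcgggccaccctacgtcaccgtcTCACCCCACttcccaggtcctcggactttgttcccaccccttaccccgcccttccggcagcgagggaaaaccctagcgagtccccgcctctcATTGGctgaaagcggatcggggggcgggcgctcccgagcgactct
Insig1: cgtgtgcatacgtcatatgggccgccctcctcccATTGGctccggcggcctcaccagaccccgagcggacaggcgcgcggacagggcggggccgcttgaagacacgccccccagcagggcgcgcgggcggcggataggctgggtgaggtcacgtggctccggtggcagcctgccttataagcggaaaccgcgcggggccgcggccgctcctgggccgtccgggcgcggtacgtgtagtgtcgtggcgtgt
Fasn: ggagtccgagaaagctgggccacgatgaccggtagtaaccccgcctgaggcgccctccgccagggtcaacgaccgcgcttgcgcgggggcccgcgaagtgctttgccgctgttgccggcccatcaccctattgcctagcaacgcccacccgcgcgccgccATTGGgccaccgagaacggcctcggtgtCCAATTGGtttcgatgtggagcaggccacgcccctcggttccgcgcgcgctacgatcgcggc
Srebf2: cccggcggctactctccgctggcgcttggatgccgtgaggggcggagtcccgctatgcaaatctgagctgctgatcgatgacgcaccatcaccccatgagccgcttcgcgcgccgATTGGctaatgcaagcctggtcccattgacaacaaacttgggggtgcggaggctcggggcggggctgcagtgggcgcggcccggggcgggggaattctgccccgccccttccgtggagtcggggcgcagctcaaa
Hmgcs1 carries 3 CCAAT boxes around its sterol element, which begins 137 bases before the start. Fasn also has 3, of which a pair overlap in opposite directions as CCAATTGG, whereas Insig1 and Srebf2 have 1 each.

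In fatty acid synthesis, Fasn was far above the genes of both acetyl-CoA carboxylases. Fasn, the synthase that assembles palmitate, had 10978 counts, the second highest count of the set, and 314 TPM (309 to 320). Acaca, the cytosolic carboxylase, had 872 counts and 16.0 TPM (15.0 to 17.1), and Acacb, the carboxylase at mitochondria, had 351 counts and 11.4 TPM (10.3 to 12.7). Fasn stood 19.6-fold above Acaca per kilobase (18.3 to 21.1), or 11.9-fold per longest transcript (11.1 to 12.8). Acaca exceeded Acacb 1.40-fold (1.24 to 1.59), but this ratio rests on the gene model, being 2.295 per longest transcript and 2.48 in raw counts. Acaca also shared 30.4% of its 50-base stretches with other transcripts, chiefly those of Gm5182.

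Desaturases and elongases held 40.2% of the members' counts, and Scd2 led all members. Scd1 and Scd2 encode stearoyl-CoA desaturases, which turn saturated into monounsaturated fatty acids. Scd2 had 20079 counts, or 2004 CPM, and 1152 TPM (1136 to 1168). Scd1 had 6661 counts and 427 TPM (417 to 437), which overlapped the interval of Insig1. Scd2 exceeded Scd1 2.70-fold (2.62 to 2.78). The genes lie on chromosome 19 with 87.6 kb between them, and they shared only 3.97% (Scd2) and 4.56% (Scd1) of their 50-base stretches with other transcripts. The paralogs Scd3, with 84.2% of its exonic bases within another gene, and Scd4 had 3 counts each. Of the elongases, Elovl5, which acts on polyunsaturated chains, had 162 TPM (154 to 169) from 1816 counts. Elovl6, which extends palmitate, had 149 TPM (144 to 154) from 3056 counts, so the intervals met at their edges, although the ratio of Elovl5 to Elovl6 was 1.09 with an interval of 1.02 to 1.15. Elovl1, which makes very long saturated chains, had 290 counts and 33.3 TPM (29.6 to 37.4), and Elovl5 lay 4.85-fold above it (4.28 to 5.51).

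The members with most annotated overlap were the lowest or missing. In GENCODE M21 on GRCm38, 7 members had over 10% of their exonic bases within the bounds of another gene, and 3 had 50% or more: Mvd, Fdps and Lss. Mvd (chromosome 8, 122433601 to 122443422) lay wholly inside Gm20388, a gene model spanning 4.43 Mb on the opposite strand. Of the exonic bases of Fdps (chromosome 3, 89093588 to 89101959), 79.6% were under Gm43738 on the same strand or a small nuclear RNA gene. For Lss (chromosome 10, 76531588 to 76557138), 68.5% were under the antisense gene 4930483K19Rik. Fdps and Lss were the only listed members under 10 TPM, although Acacb joined them at 9.22 per longest transcript. The 25 members with at most 10% overlap ran from 11.4 to 1152 TPM with a median of 129. Hmgcs1 (chromosome 13, 119690379 to 119708260), with 46.6% under an antisense gene, was nevertheless at 102 TPM. Over all annotated protein-coding genes, 32.7% of those with 50% or more overlap were listed, against 88.2% of those with over 10% but under 50% and 71.4% of those with at most 10%. Of the 1271 genes inside another gene 5.59% were listed. These percentages count the introns of the other gene too. Under exons of another gene lay 26.7% of the exonic bases of Fdps, 12.1% of Hmgcs1, 3.53% of Lss and 0% of Mvd. Whether reads within the bounds or exons of another gene were dropped in counting was not tested. The levels of Fdps and Lss and the missing Mvd therefore cannot be read as low expression.

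**Figure D3:**
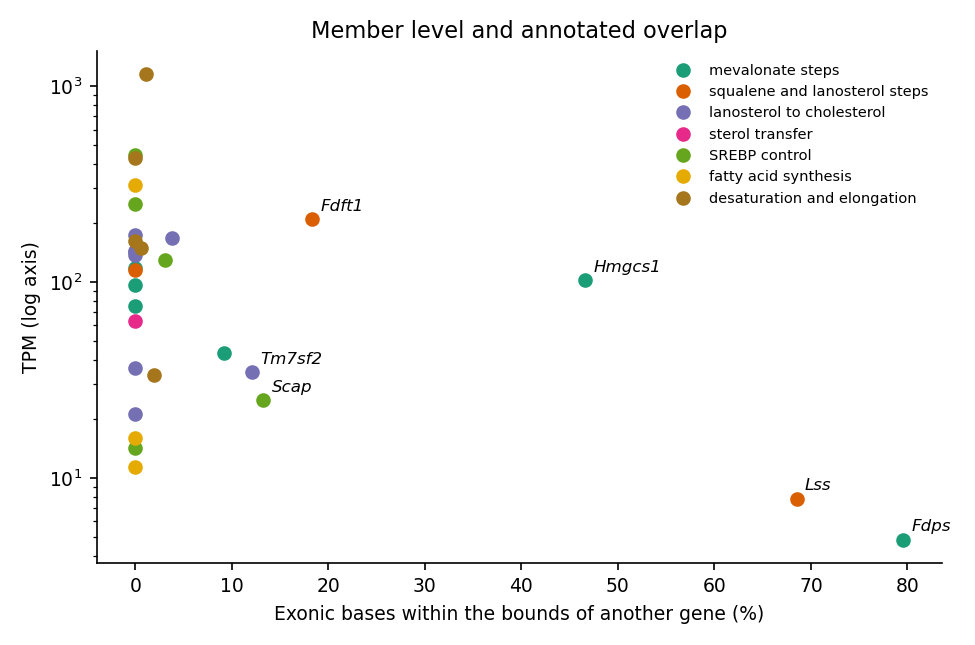
Level in TPM (log axis) of each listed member against the percentage of its exonic bases within the bounds of another gene; each point is 1 gene, coloured by role, and members over 10% are named. Fdps and Lss lie at the lower right, at 4.84 and 7.82 TPM.

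Lists of neighbouring parts of the pathway mostly had lower medians. Of 77 genes in 8 related lists, 66 were listed and 60 reached 1 CPM, and their median was 20.96 TPM. In the supply of acetyl-CoA and citrate all 5 genes reached 1 CPM, led by Slc25a1, the mitochondrial citrate carrier, at 924 TPM (901 to 947), above Fasn. Me1, the malic enzyme that yields NADPH, and Aacs, which activates acetoacetate, followed at 102 and 78.5 TPM, and Acss2, with 52.2% of its exons under another gene, was lowest at 5.89. Among partners of elongation and desaturation, 14 of 17 reached 1 CPM. Tecr, the reductase shared by all elongation cycles, led with 669 TPM, 4.14-fold above Elovl5 (3.92 to 4.37), and Fads2 and Fads1, the desaturases of polyunsaturated chains, followed at 242 and 230.3 TPM. The other elongase genes were low, with 8.14 TPM for Elovl2, 9.63 for Elovl4, 9.45 for Elovl7 and 1 count for Elovl3, the lowest of the list. Processing and sterol-regulated degradation had 9 of 11 genes at 1 CPM, among them Mbtps1, whose protease makes the first cut in SREBP, at 86.8 TPM and Erlin2 at 67.4, and lowest at Usp20 with 6.85. Its unlisted genes, Rnf139 and Fbxw7, had 98.6% and 100% of their exons under another gene. Isoprenoid branches had 8 of 9 genes at 1 CPM, led by the prenyltransferase genes Fnta and Fntb at 146 and 85.2 TPM, then Nus1 at 64.3, and lowest at Pggt1b with 8.78. Sterol uptake, transport and storage had all 14 genes at 1 CPM, led by Tmem97 at 344 TPM, the lysosomal sterol carrier Npc2 at 238 and the receptor gene Scarb1 at 56.2, and lowest at Npc1 with 4.29.

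Against the other central carbon pathways, the set was lower at its median. Glycolysis had 18 of 18 genes at 1 CPM and a median of 236 TPM, and the members' median minus it was -0.95 on the log2(TPM + 1) scale. Its highest genes were Aldoa at 1466 TPM, Pkm at 1023 and Pgk1 at 829.8, and its lowest was the neuronal enolase gene Eno2 at 5.86. Aldoa was this high although 50.6% of its exonic bases lay within another gene. The TCA cycle had 18 of 18 genes at 1 CPM and a median of 165 TPM, and the same difference was -0.49. Idh2, Sdhd and Mdh2 led it at 766, 650.4 and 542 TPM. With 1 value per gene these differences carry no test. Scd2 lay between the highest glycolytic genes, so the set's range, not its median, reached theirs.

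**Figure D4:**
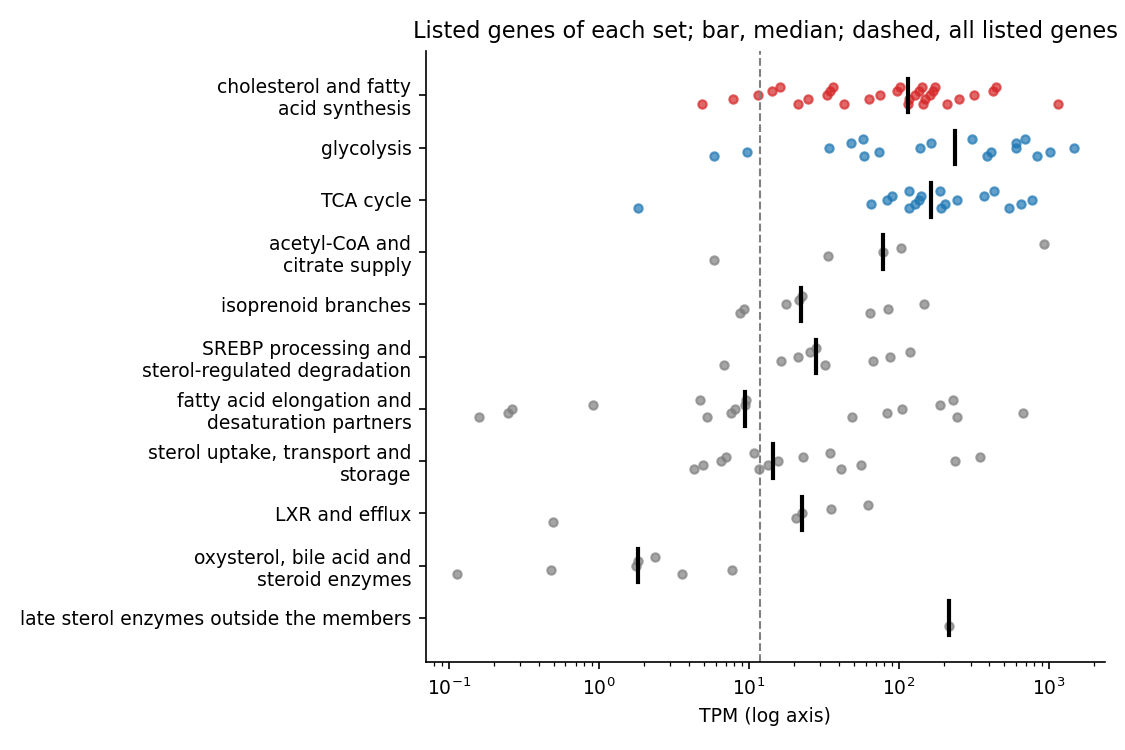
TPM of the listed genes of each set on a log axis; each point is a gene, black bars are medians and the dashed line is the median of all listed genes. The members' median of 116 TPM lies left of glycolysis (236) and the TCA cycle (165) and right of all listed related sets except the last, which holds Lbr alone.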

How the data were processed

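Poly(A) RNA of 2 libraries of 1 group was sequenced. Per the submitters' processing notes, reads were handled with Trimmomatic 0.38, aligned with HISAT2 and counted with featureCounts (Subread 1.6.4) on GRCm38.p6. The annotation, strand setting and counted feature are not given in the labels or the file. The counts were deposited raw, in 1 column of whole numbers from 1 to 117610, and were scaled here to CPM by their total. Members were found by symbol. Symbols were matched to GENCODE M21, 14896 directly and 156 through RefSeq synonyms, and 75 symbols with 0.131% of the counts had no length. TPM used the union of annotated exons. Intervals are exact at 95%, and without molecular identifiers they cover counting error only. At the members' extremes, 65 and 20079 counts, the half-width was 25.1% and 1.39% of the value. A 50-base stretch was called shared when another gene's M21 transcript held it on either strand. With 1 group and 1 column no test was made, and the planned comparison of the 2 libraries was not run. The members and lists were chosen with earlier results of these data known. The rule named every member and the 3 highest and the lowest listed gene of each other list, and not every gene it names is printed. Unlisted genes and overlapping genes were named after their values were seen. Some further pathway genes, among them a short list planned at the start, are not reported here. Alternatives were other minimums, a pseudocount of 0.1 in place of 1, longest transcripts, raw counts, overlap-free genes and unlisted genes at 0. Functions were tested on simulated counts. The tools were Python 3.11.15 with scipy 1.17.1, numpy 2.4.6, matplotlib 3.10.9 and pandas 2.3.3.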

Additional observations from a re-analysis of the deposited data

How the results depend on the processing

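All 31 listed members stayed above a minimum of 0.5 CPM, of 5 CPM and of 10 counts. The members' median minus that of all listed genes, 2.74 on the log2 scale, was 3.17 per kilobase of exon, 2.01 among genes at 1 CPM or more, 2.58 among overlap-free genes and 5.03 with unlisted annotated genes at 0. Without members that overlap another gene or share over 10% of their 50-base stretches, an alternative added after seeing the data, it was 3.33. With the longest transcript as length, the median was 106 TPM for the squalene and lanosterol genes, 50.9 for Stard4, 21.2 for fatty acid synthesis and 151 for desaturation and elongation. Without Scap, which overlaps another gene, the control genes had a median of 189.7 TPM. On longest transcripts and on raw counts, the ratio of Srebf2 to Srebf1 was 2.10 and 2.48, and that of Acaca to Acacb 2.295 and 2.48. The ratio of Scd2 to Scd1 was 3.01 on raw counts. The members' median minus that of glycolysis was -1.20 on longest transcripts and -1.06 in CPM, and minus that of the TCA cycle -0.79 and -0.68. None of these differences and ratios changed direction. Among other pairs, tried after seeing the data, the ratio of Acat2 to Hmgcs1, 1.15 per kilobase, turned to 0.982 on longest transcripts and 0.638 on raw counts. On raw counts, which do not correct for length, the ratio also turned for Elovl5 to Elovl6 (0.594), Ebp to Nsdhl (0.974) and Fasn to Slc25a1 (1.72). No paired analysis was possible because the single column carries no replicate number, and for the same reason no library could be left out. Depth did not limit the listed members, whose smallest count was 65. The part that annotated overlap plays in the values of Mvd, Fdps and Lss was not tested.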

Other observations

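The 5 listed genes of LXR sterol sensing and efflux had a lower median than the 31 listed members, at 22.5 against 116 TPM. The ranges overlapped and no test was made. The members include Stard4 and the SREBP control genes besides the enzymes. In the LXR and efflux list 4 of 7 genes reached 1 CPM. Nr1h2, one of the LXR sterol sensors, led with 62.3 TPM (95% Poisson interval 57.7 to 67.3), while its paralog Nr1h3 had 4 counts. The efflux transporter genes Abcg1 and Abca1 had 35.3 and 20.8 TPM, Mylip, whose ubiquitin ligase removes lipoprotein receptors, had 22.5, and the sterol transporters Abcg5 and Abcg8 were not listed.

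Genes for turning cholesterol into oxysterols, bile acids or steroid hormones were near the floor of the counts. Of 11 such genes 5 reached 1 CPM and none reached 10 CPM, with a summed level of 15.8 CPM against 7927 CPM for the members. Star, which is not an enzyme, is among the 5, with 24 counts. Cyp7b1 was highest with 53 counts, followed by Cyp27a1 with 25 and Cyp39a1 with 23 in the order of TPM, and Cyp17a1 was lowest with 1. Cyp7a1, the rate-limiting enzyme of bile acid synthesis, and Ch25h were not listed.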
